A study of Mus musculus with 18 samples.

Results

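The genes of the cell cycle and of DNA replication described here number 39, of 49585 gene identifiers in the deposited count table, and were chosen by name, not by a measured value. They fall into 3 sets by role. The replication set holds 10 genes, Mcm2, Mcm3, Mcm4, Mcm5, Mcm6, Mcm7, Pcna, Gins2, Rrm1 and Rrm2. The set for the G1/S transition and origin licensing holds 7 genes, Cdc6, Cdt1, Tyms, E2f1, Ccne1, Ccne2 and Ccnd1. The mitosis set holds 22 genes, Mki67, Top2a, Ccnb1, Ccnb2, Ccna2, Cdk1, Bub1, Bub1b, Plk1, Aurka, Aurkb, Birc5, Cdc20, Cenpa, Cenpe, Cenpf, Nusap1, Tpx2, Ube2c, Kif11, Kif20a and Hmgb2.

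RNA was profiled in 18 lung lesions formed by AT3 cells, a mouse mammary carcinoma line, that carried GFP and mCherry and had spread from the mammary fat pad without further injection. The hosts, labelled Rag2-/-IL2rg-/- (with Rag1 instead of Rag2 in the growth protocol), lack T, B and NK cells of their own, so both groups share these deletions. On day 11 the NK group was given 60000 NK cells, of mouse origin and activated in culture, by vein, and the Ctrl group was given PBS. The NK group comprised 7 lesions of 2 mice, NK1 with 3 lesions and NK2 with 4, and the Ctrl group 11 lesions of 3 mice, titled KO1 with 5 lesions, KO2 with 4 and KO3 with 2. Fluorescent lesions were cut out of frozen sections by laser microdissection, and 2 ng of each lesion's total RNA entered a library kit made for single cells. A lesion is written below as mouse and lesion number. The mouse was taken as the replicate, since lesions of one host are not independent.

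A dividing cell copies its genome in S phase and separates the copies in mitosis. Cyclin D1 and cyclin E, acting through their kinases, release E2F transcription factors, which switch on the genes for replication. Cdc6 and Cdt1 load the ring of Mcm2 to Mcm7 on origins in G1, and in S phase this ring, with the GINS complex, unwinds the DNA ahead of the polymerases, which the clamp Pcna holds in place. Genes of G2 and mitosis are switched on later, largely through promoters that carry CCAAT boxes and the element called CHR. Because quiescent cells turn most of these genes down, their transcripts are widely read as a measure of the dividing fraction of a tumour. In bulk RNA from a captured lesion, fewer dividing cells and less of a transcript per dividing cell cannot be told apart.

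Promoter sequences are shown for the members of the replication and mitosis sets with the highest mean level, because these sets are known for different promoter elements. They are RefSeq sequences of the GRCm38.p6 build, from 250 bases before to 50 bases after the start annotated for the entry. An entry was found for 31 of the 39 members. For Mcm7, E2f1 and Cdc6 the windows lie inside the annotated span of the gene, so they do not cover the bases before its outermost start. Not matched were Ccnd1, Ccna2, Tpx2, Kif20a, Aurkb, Mcm4, Ccne2 and Gins2. Capitals mark 3 kinds of word on either strand: E2F words (TTTCCCGC, TTTCGCGC, TTTGCCGC or TTTGGCGC), CCAAT, and CHR words (TTTGAA or the palindrome TTCGAA). Words may overlap, as TTTCGCGC and CCAAT do in Mcm7. Mcm7 (minus strand, chr5:138171834-138172133) has 2 entries, and its entry shown here held 2 E2F words, 3 CCAAT words and 1 palindromic CHR word, while the entry at chr5:138171217-138171516 held 1 CCAAT word. Mcm3 (minus strand, chr1:20820263-20820562) held 2 E2F words and 3 CCAAT words. Ube2c (plus strand, chr2:164769679-164769978) held 6 CCAAT words and 1 CHR word, and Cenpe (plus strand, chr3:135212313-135212612) held 1 CCAAT word.
Mcm7: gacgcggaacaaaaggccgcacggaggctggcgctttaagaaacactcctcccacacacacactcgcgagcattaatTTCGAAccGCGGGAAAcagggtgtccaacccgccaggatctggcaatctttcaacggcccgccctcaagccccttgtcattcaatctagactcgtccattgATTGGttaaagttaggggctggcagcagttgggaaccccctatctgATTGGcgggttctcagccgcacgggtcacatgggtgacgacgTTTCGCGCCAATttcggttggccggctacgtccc
Mcm3: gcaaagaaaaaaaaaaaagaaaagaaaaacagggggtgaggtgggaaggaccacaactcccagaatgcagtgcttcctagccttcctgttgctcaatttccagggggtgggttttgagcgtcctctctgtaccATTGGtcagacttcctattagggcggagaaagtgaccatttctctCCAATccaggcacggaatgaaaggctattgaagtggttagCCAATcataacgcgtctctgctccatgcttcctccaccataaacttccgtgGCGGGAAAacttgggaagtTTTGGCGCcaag
Ube2c: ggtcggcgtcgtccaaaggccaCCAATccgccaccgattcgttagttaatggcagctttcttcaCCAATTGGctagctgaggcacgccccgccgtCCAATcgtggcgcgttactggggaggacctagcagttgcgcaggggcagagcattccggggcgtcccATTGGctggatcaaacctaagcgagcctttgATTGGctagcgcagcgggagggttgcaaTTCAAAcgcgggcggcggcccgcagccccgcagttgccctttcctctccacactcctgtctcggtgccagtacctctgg
Cenpe: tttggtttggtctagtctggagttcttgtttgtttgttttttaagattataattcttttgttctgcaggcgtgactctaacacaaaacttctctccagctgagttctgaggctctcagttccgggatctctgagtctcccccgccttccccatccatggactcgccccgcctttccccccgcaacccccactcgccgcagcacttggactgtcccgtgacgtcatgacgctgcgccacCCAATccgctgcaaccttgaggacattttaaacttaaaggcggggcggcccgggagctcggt

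E2F words lay in 4 of 8 replication promoters, 2 of 5 G1/S promoters and 1 of 18 mitosis promoters, against 2.6% of the 27025 genes of the table. CCAAT lay in 8 of 8 replication promoters, 0 of 5 G1/S promoters and 16 of 18 mitosis promoters, against 41.1% of genes. CHR words lay in 2 of 8, 0 of 5 and 14 of 18 promoters of these sets, against 21.7% of genes. The G1/S counts include the windows of E2f1 and Cdc6, and the replication counts those of Mcm7, which lie inside these genes. A word absent from such a window may still lie before the gene. These counts describe letters in a window of 300 bases and were not tested.

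Transcripts of all 39 members were present in both groups, and 37 members had a count in all 18 lesions. The other 2, the GINS subunit Gins2 and the cyclin Ccne2, had 0 counts in lesion NK1-3, where 3 counts, the number that a count of 0 allows, equal 2.16 CPM (counts scaled to a common library size). On the scale of mean CPM per kilobase of exon, the level of the helicase subunit Mcm7 was the highest of the members at 82.3, followed by the ubiquitin-conjugating enzyme Ube2c at 55.4, the cyclin D1 gene Ccnd1 at 53.4 and Mcm3 at 32.9. At the low end of this scale stood the cell cycle regulated kinetochore protein gene Cenpf at 1.51 and Ccne2 at 1.78. Subunits of one ring differed as well, with Mcm4 at 5.95 and Mcm5 at 7.93 CPM per kilobase.

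**Figure D1:**
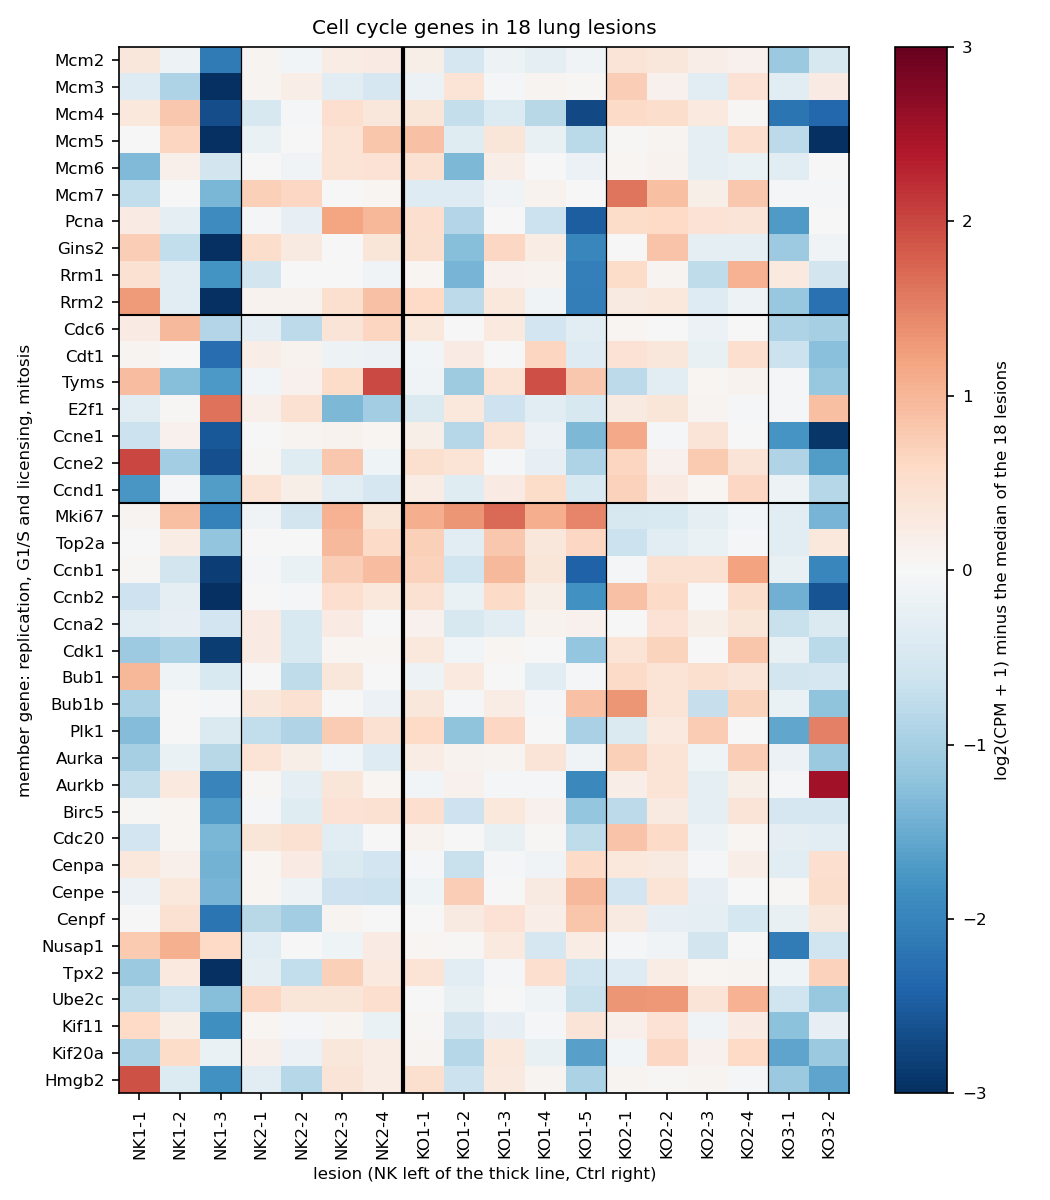
Level of each member (rows, in the order replication, G1/S and licensing, mitosis) in each lesion (columns, NK left of the thick line and Ctrl right of it), as log2(CPM + 1) minus the median of the member over the 18 lesions; colours end at 3 in either direction. The column of NK1-3, the lesion with the fewest total counts, is the lowest for 24 of 39 members, and Mki67 is high in all 5 lesions of KO1. The share of all genes lowest in NK1-3 was not counted.

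Whether the transferred NK cells left lesions with another level of dividing cell transcripts is the question the 2 groups address. No member passed the test between NK and Ctrl mice. With the quasi-likelihood test of edgeR on counts summed per mouse and Benjamini-Hochberg adjustment over 16917 genes, 0 of 39 members passed a threshold of 0.05, beside 0% of all genes tested, and the adjusted p of all 39 was 0.9998. At an unadjusted p under 0.05 edgeR had 0 members and 2.52% of genes, and DESeq2 called 0 members beside 0.223% of genes. The smallest unadjusted p of a member was 0.125, for Hmgb2 in edgeR. Log2 fold changes (NK over Ctrl) ran from -0.90 for Aurkb to 0.97 for Ccne2, with standard errors of 0.34 to 0.73. A change of the order of those errors would not be seen here, and far larger ones were not called by edgeR either. The NK cell marker Ncr1 had 5.705 ± 1.518 (SE) and the fibroblast marker Lum 3.664 ± 0.595, each with an edgeR adjusted p of 0.9998. In DESeq2 both passed, with adjusted p of 0.023 for Ncr1 and 8.6e-05 for Lum, while the smallest of a member was 0.9995. The members' fold changes were far smaller than these, so the 0 calls among them do not show that their levels were alike. Of the members' fold changes 16 were positive and 23 negative, with a median of -0.12 beside -0.03 over all genes tested. The median was 0.22 for the replication set, -0.05 for the G1/S set and -0.20 for the mitosis set, and the sign of each depended on single mice: it was -0.07 for replication without mouse KO3, 0.37 for G1/S without KO2 and 0.06 for mitosis without NK1. By mouse, both NK mice lay above all 3 Ctrl mice for 2 members, Rrm2 and Cdc6, where 7.94% of all genes did so. Both lay below all 3 Ctrl mice for 3 members, Mcm3, Plk1 and Cenpe, where 6.86% of genes did so. These shares of the members are close to the background. By lesion, the groups overlapped for all 39 members.

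**Figure D2:**
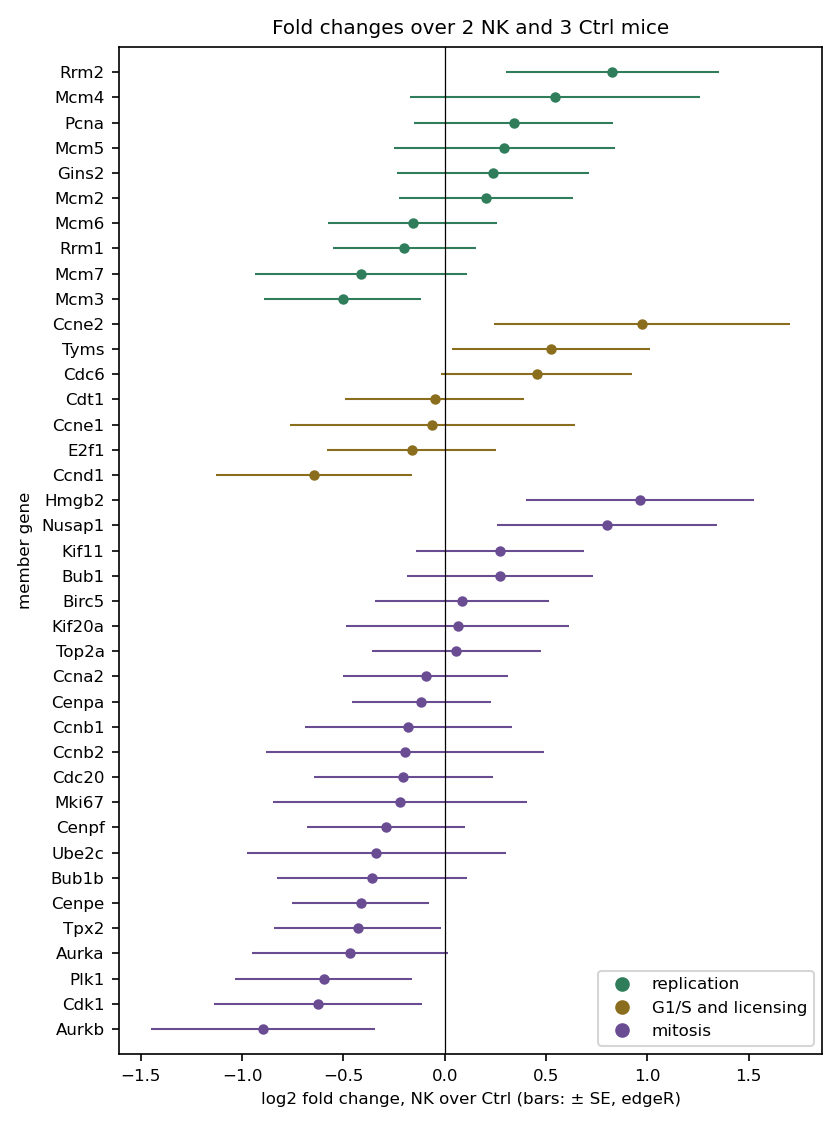
Log2 fold change of each member, NK over Ctrl (points, with bars of 1 standard error from edgeR over 2 NK and 3 Ctrl mice), ordered within the replication, G1/S and mitosis sets. The values run from -0.90 for Aurkb to 0.97 for Ccne2, and none passed the test.

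Among the replication genes, 6 fold changes were positive and 4 negative. Mcm7 (chromosome 5, 138164583 to 138172422 on GRCm38), a subunit of the replicative helicase whose introns host Mir106b, Mir25 and Mir93, had a lowest, median and highest level of 117, 306 and 503 CPM in the NK lesions and of 232, 304 and 936 CPM in the Ctrl lesions. Over all counts of a mouse it had 198 CPM in NK1 and 416 in NK2, against 287 in KO1, 636 in KO2 and 303 in KO3. KO2 stood above the rest and the mice of both groups overlapped, with a log2 fold change of -0.41 ± 0.53 (SE), which was 0.06 without mouse KO2. Mcm7 is uncertain because its pseudogene Gm5487 is nearly identical and Ap4m1 and Cops6 overlap it on the other strand.

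Mcm3 (chromosome 1, 20802968 to 20820312), another subunit of this helicase, had 10.8, 97.8 and 148 CPM as lowest, median and highest level of the NK lesions and 103, 136 and 214 CPM in the Ctrl lesions. Its mice had 76.2 and 124 CPM in NK1 and NK2, against 134, 168 and 125 CPM in KO1, KO2 and KO3. The mice of the groups did not overlap, but NK2 and KO3 differed by under 1 CPM, and the log2 fold change was -0.50 ± 0.39 (SE, edgeR adjusted p = 0.9998). It was -0.90 without mouse NK2 and -0.19 without mouse NK1, and NK1-3 was the lowest of all lesions for Mcm3.

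Rrm2 (chromosome 12, 24708241 to 24714146), the small subunit of ribonucleotide reductase, which makes the building blocks of DNA, had 1.44, 45.2 and 103 CPM as lowest, median and highest level of the NK lesions. In the Ctrl lesions these were 8.03, 37.8 and 64.0 CPM. Summed by mouse, Rrm2 had 70.1 CPM in NK1 and 61.1 in NK2, against 49.2 in KO1, 46.4 in KO2 and 15.1 in KO3. Both NK mice were above the Ctrl mice, yet the lesions of NK1 held both the highest and the lowest value of all 18 lesions. The log2 fold change was 0.83 ± 0.53 (SE), and 0.19 without lesion NK1-1. The large subunit Rrm1 had -0.20 ± 0.35, with 70.8 and 64.0 CPM in the NK mice, against 67.2, 93.2 and 71.6 CPM in the Ctrl mice. The groups overlapped for Rrm1, and Gm45399 overlaps it on the same strand, which makes its values uncertain.

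The other replication genes had fold changes within 1 standard error of 0. The clamp Pcna had 50.4 CPM in NK1 and 86.4 in NK2, against 51.9 in KO1, 80.2 in KO2 and 30.0 in KO3. Mcm4 had 27.7 and 27.3 CPM in the NK mice, against 19.5, 32.6 and 4.26 CPM in KO1, KO2 and KO3. For Mcm4, Mcm5, Pcna, Gins2, Rrm2 and Mcm2, mouse KO3 was the lowest of the 5 mice. Pcna has a near-identical pseudogene, Pcna-ps2, and Gins2 overlaps Gse1 on the other strand, so these values are uncertain.

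In the G1/S and licensing set, 3 fold changes were positive and 4 negative. Ccnd1 (chromosome 7, 144929931 to 144939925), the gene of cyclin D1, which links growth signals to entry into the cycle, had 76.0, 204 and 339 CPM as lowest, median and highest level of the NK lesions and 141, 297 and 413 CPM in the Ctrl lesions. The mice had 114 CPM of Ccnd1 in NK1 and 263 in NK2, against 315 in KO1, 365 in KO2 and 205 in KO3. Only KO3 kept the mice of the groups from standing apart, and the log2 fold change was -0.65 ± 0.48 (SE, edgeR adjusted p = 0.9998). It was -1.37 without mouse NK2 and -0.16 without mouse NK1. LTO1 overlaps Ccnd1 on the other strand, which makes its value uncertain.

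Cdt1 (chromosome 8, 122568015 to 122573554), a loader of the Mcm ring, had 11.52, 60.5 and 69.3 CPM as lowest, median and highest level of the NK lesions and 24.6, 59.2 and 94.0 CPM in the Ctrl lesions. Its mice had 54.2 and 63.0 CPM in the NK group, against 69.4, 78.4 and 33.9 CPM in KO1, KO2 and KO3. The NK mice lay between the Ctrl mice, with a log2 fold change of -0.05 ± 0.44 (SE). Its partner Cdc6 had 21.1 and 19.2 CPM in the NK mice, against 18.3, 17.4 and 8.35 CPM in the Ctrl mice, a log2 fold change of 0.45 ± 0.47. The NK mice were above the Ctrl mice for Cdc6 by less than the difference between KO2 and KO3. Gm20388 overlaps Cdt1 on the same strand, which makes the Cdt1 values uncertain.

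Ccne2 (chromosome 4, 11191351 to 11204779), the gene of cyclin E2, which drives entry into S phase, was the member with the highest fold change and the fewest counts. It had 0, 4.71 and 24.1 CPM as lowest, median and highest level of the NK lesions and 0.944, 5.87 and 9.70 CPM in the Ctrl lesions. Its mice had 15.04 CPM in NK1 and 6.21 in NK2, against 5.88, 8.27 and 1.91 CPM in the Ctrl mice KO1, KO2 and KO3. Lesion NK1-1 alone stood above all others. The log2 fold change of 0.97 ± 0.73 (SE) was -0.46 without that lesion. Ints8 overlaps Ccne2 on the other strand, which makes its few counts uncertain. Ccne1, which encodes cyclin E1, had 27.9 and 46.5 CPM in the NK mice, against 46.0, 61.0 and 9.40 CPM in the Ctrl mice. The thymidylate synthase gene Tyms had 33.8 and 55.5 CPM in the NK mice, against 48.4, 24.0 and 20.8 CPM in the Ctrl mice, and 1 lesion of each group, NK2-4 at 106 CPM and KO1-4 at 103 CPM, stood above the rest. Tyms has a near-identical pseudogene, Tyms-ps, and is uncertain.

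In the mitosis set, 7 fold changes were positive and 15 negative. Ube2c (chromosome 2, 164769898 to 164778822), which works with the anaphase-promoting complex to mark cyclin B for destruction, had 50.4, 158 and 189 CPM as lowest, median and highest level of the NK lesions and 55.2, 122 and 309 CPM in the Ctrl lesions. By mouse it had 68.9 CPM in NK1 and 180.0 in NK2, against 121 in KO1, 276 in KO2 and 74.3 in KO3. The difference between mice of one group exceeded that between the groups, with a log2 fold change of -0.34 ± 0.64 (SE), which was 0.35 without mouse KO2. Tnnc2 overlaps Ube2c on the other strand, so its value is uncertain.

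Cenpe (chromosome 3, 135212537 to 135273611), a kinesin that brings chromosomes to the spindle equator, had 33.1, 78.4 and 110.4 CPM as lowest, median and highest level of the NK lesions and 59.5, 90.4 and 175 CPM in the Ctrl lesions. Its mice had 77.6 and 74.7 CPM in NK1 and NK2, against 105, 92.98 and 107 CPM in KO1, KO2 and KO3. Cenpe had the smallest standard error of the members. Its log2 fold change was -0.41 ± 0.34 (SE, edgeR adjusted p = 0.9998), between -0.55 and -0.31 when a mouse or lesion was left out. The processed pseudogene Gm8669 matches 10.8% of the Cenpe transcript at 92.8% identity, so this value is uncertain too.

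Hmgb2 (chromosome 8, 57511907 to 57515999), a chromatin protein that is abundant in dividing cells, had 16.6, 47.2 and 229.8 CPM as lowest, median and highest level of the NK lesions and 19.6, 61.6 and 84.8 CPM in the Ctrl lesions. Summed by mouse, Hmgb2 had 151 CPM in NK1 and 61.0 in NK2, against 71.6 in KO1, 66.0 in KO2 and 25.3 in KO3. NK1-1 stood far above every other lesion, and the median of the NK lesions was the lower one. The log2 fold change of 0.97 ± 0.56 (SE) was -0.16 without lesion NK1-1. Several processed pseudogenes are nearly identical to Hmgb2, so its value is uncertain.

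Aurkb (chromosome 11, 69045647 to 69051664), the kinase of the chromosomal passenger complex, had 7.92, 34.8 and 44.0 CPM as lowest, median and highest level of the NK lesions and 8.23, 33.6 and 202 CPM in the Ctrl lesions. By mouse it had 23.2 CPM in NK1 and 37.6 in NK2, against 33.2 in KO1, 40.8 in KO2 and 96.2 in KO3. A single lesion, KO3-2, stood far above the other 17, and the medians of the groups were close. The log2 fold change of -0.90 ± 0.55 (SE) was -0.24 without lesion KO3-2.

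**Figure D3:**
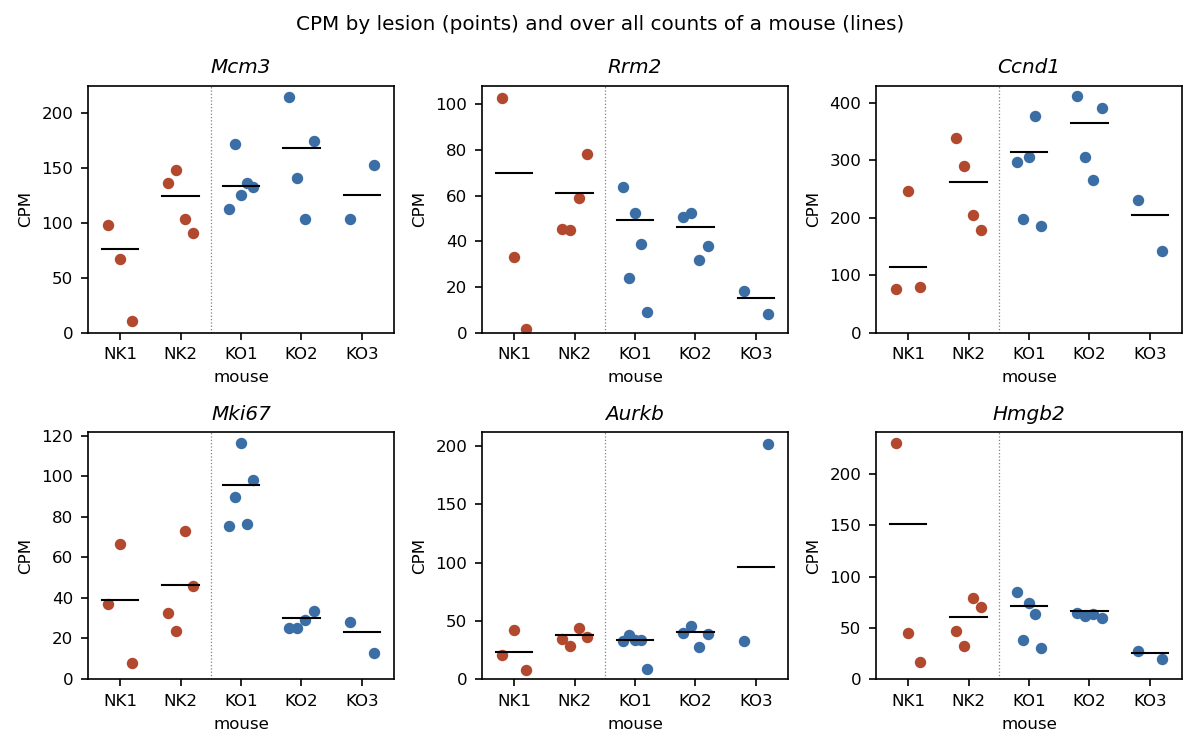
CPM of 6 members in each lesion (points) and over all counts of each mouse (lines), with NK mice left of the dotted line and Ctrl mice right of it. Rrm2 and Hmgb2 are highest in lesion NK1-1, Mki67 in the 5 lesions of KO1, and Aurkb in lesion KO3-2 at 202 CPM.

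Several mitosis genes were chosen for description after their values were seen. The kinase Plk1, which acts at entry into mitosis, had 12.7 and 25.2 CPM in the NK mice, against 29.4, 28.02 and 28.9 CPM in the Ctrl mice. Its Ctrl mice were close to each other, but their lesions ran from 6.99 to 65.9 CPM, and KO3-2 was again the highest lesion. The log2 fold change of Plk1 was -0.60 ± 0.44 (SE), and -0.18 without lesion KO3-2. Its pseudogene Plk-ps1 makes the value uncertain. Other mitosis genes differed in KO3-2. Aurka, a spindle pole kinase, was lowest there at 12.3 CPM, while its activator Tpx2 had 79.5 CPM there, near its highest value of 82.1 CPM in NK2-3. The cyclin B genes Ccnb1 and Ccnb2 had 9.91 and 7.08 CPM there. Birc5, the survivin gene of the complex that holds Aurkb, had 12.8 CPM in KO3-2, within the range of the other lesions.

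Mki67, which encodes the proliferation antigen Ki-67, differed between mice of one group more than between groups. It had 75.7 to 116 CPM in the 5 lesions of KO1, and all of them stood above the other 13 lesions, whose highest had 73.1 CPM. Lesions of a mouse are not independent, and 0.0768% of genes tested had all lesions of KO1 above all others. By mouse, Mki67 had 39.02 and 46.1 CPM in NK1 and NK2, against 95.8, 29.9 and 23.1 CPM in KO1, KO2 and KO3, and its log2 fold change of -0.22 ± 0.63 (SE) was 0.70 without mouse KO1. The other mitosis genes did not share this pattern: Top2a, the topoisomerase that untangles replicated DNA, had 61.1 to 135 CPM in the lesions of KO1 and up to 152 CPM elsewhere, and Cdk1, the mitotic kinase, was highest in KO2 with 97.8 CPM. Nusap1, a spindle protein, had 31.0 to 43.4 CPM in the 3 lesions of NK1, all above the other 15 lesions, whose highest had 25.0 CPM, where 0.378% of genes tested had all lesions of NK1 above all others. Both lesions of KO3 were the lowest 2 of the 18 for Nusap1 and for Cdc6, where 1.02% of genes tested were so. These mouse patterns were also chosen after the values were seen.

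The remaining mitosis genes gave fold changes between -0.63 for Cdk1 and 0.28 for Kif11, a kinesin that pushes spindle poles apart. Nusap1, described above, lay outside this range at 0.80 ± 0.54 (SE), which was 0.37 without mouse NK1. Cdk1 had 26.3 CPM in NK1 and 66.7 in NK2, against 68.5 in KO1, 97.8 in KO2 and 49.1 in KO3. Its fold change of -0.63 was -1.45 without mouse NK2 and -0.10 without mouse NK1. Fold changes of the checkpoint kinase genes were -0.36 ± 0.47 for Bub1b, which was -0.003 without mouse NK1, and 0.27 ± 0.46 for Bub1. Among kinetochore genes, Cenpa had -0.12 ± 0.34 and Cenpf -0.29 ± 0.39, beside -0.41 ± 0.34 for Cenpe described above. The spindle assembly factor Tpx2 had -0.43 ± 0.41, which was -0.015 without mouse NK1, the cytokinesis kinesin Kif20a 0.07 ± 0.55, and Ccna2, the gene of cyclin A2, -0.09 ± 0.41. Ccnb1 and Cdc20, an activator of the anaphase-promoting complex, have near-identical pseudogenes and are uncertain. So are Nusap1, Kif20a and Ccna2, which Oip5, Cdc23 and Exosc9 overlap on the other strand, and Cdc20, Cenpf, Mki67, Plk1 and Top2a, which also have such a partner.

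Lesions of one mouse differed from each other, as did mice. The standard deviation of log2(CPM + 1) among single lesions within a mouse exceeded that among mice for 25 of 39 members. The medians over members were 0.64 and 0.53. The values by mouse come from counts summed over its lesions, which evens out single lesions and gives deep ones more weight. These spreads are therefore not like measures, and do not show which source of variation is larger. The members' levels did not spread evenly over lesions: 24 of the 39 had their lowest value in NK1-3, and 9 had their highest in KO2-1. By mouse, KO2 was the highest for 19 members, and KO3 was the lowest for 21 and NK1 for 12. E2f1, the transcription factor gene of the replication program, went the other way in NK1-3 and had its highest value there, 87.1 CPM, against 10.3 to 38.2 CPM in the other NK lesions.

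A set score, the mean log2 CPM of the set, puts these patterns together. The replication score averaged 5.95 ± 0.29 (SD, n = 2 mice) in the NK mice and 5.75 ± 0.61 (SD, n = 3) in the Ctrl mice. For the G1/S set the scores were 5.19 ± 0.11 in the NK mice and 4.95 ± 0.62 in the Ctrl mice, and for the mitosis set 5.42 ± 0.29 and 5.52 ± 0.41. All 3 differences between groups were smaller than the spread over the Ctrl mice. By lesion, the replication score ran from 2.83 in NK1-3 over a median of 5.92 to 6.21 in the NK lesions, and from 4.53 in KO1-5 over 5.72 to 6.33 in the Ctrl lesions. The mitosis score ran from 3.91 over 5.46 to 5.74 in the NK lesions, and from 4.82 over 5.57 to 5.80 in the Ctrl lesions. The replication score was the higher of these 2 in 14 of 18 lesions. It was the lower one in NK1-3, by 1.08, and in KO1-2, KO1-5 and KO3-2, by 0.19 to 0.55.

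**Figure D4:**
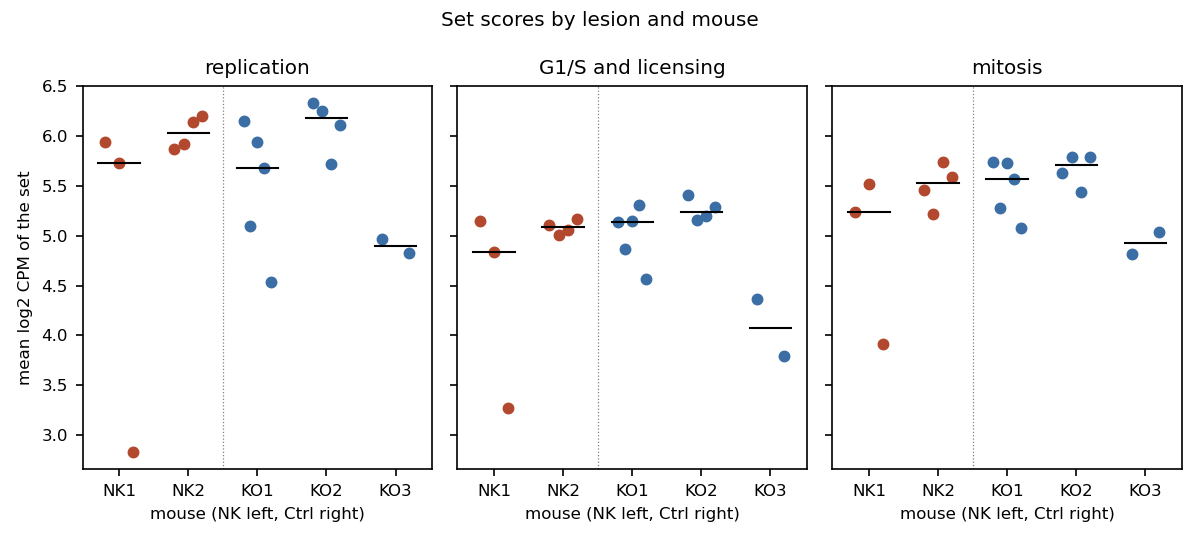
Mean log2 CPM of each set in every lesion (points) with the median of each mouse's lesions (lines), NK mice left of the dotted line and Ctrl mice right of it. NK1-3 is the lowest lesion in all 3 panels, at 2.83, 3.27 and 3.91, and both lesions of KO3 lie below the other Ctrl lesions for the G1/S and mitosis sets.

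Depth and RNA makeup differed between lesions along with these scores. Total counts ran from 2964241 to 11798853 in the NK lesions and from 5690448 to 9816212 in the Ctrl lesions, and the members together had 1276 counts in NK1-3 and 45402 in NK2-4. Between 12.1% and 68.7% of the counts in a lesion came from the mitochondrial ribosomal transcript mt-Rnr2, and over 40% in 6 lesions, the 3 of NK1 and KO1-2, KO1-5 and KO3-2. Median scores of these 6 lesions and of the other 12 were 4.96 and 6.03 for replication, 4.71 and 5.15 for G1/S, and 5.16 and 5.62 for mitosis. Not all lesions followed these medians. Of the 6, NK1-1 and NK1-2 had replication scores of 5.945 and 5.732, within the range of the other 12. KO3-1, with 35.8% of its counts from mt-Rnr2, had the lowest replication score of those 12, 4.964. The 4 lesions with the replication score below the mitosis score were all among the 6. Without these 6 lesions, which leaves mouse NK2 alone in its group, the log2 fold change turned positive for 11 members, Mcm7 at 0.003 and Ube2c at 0.14 among them. The part of depth and of mt-Rnr2 in the members' levels was not tested.

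**Figure D5:**
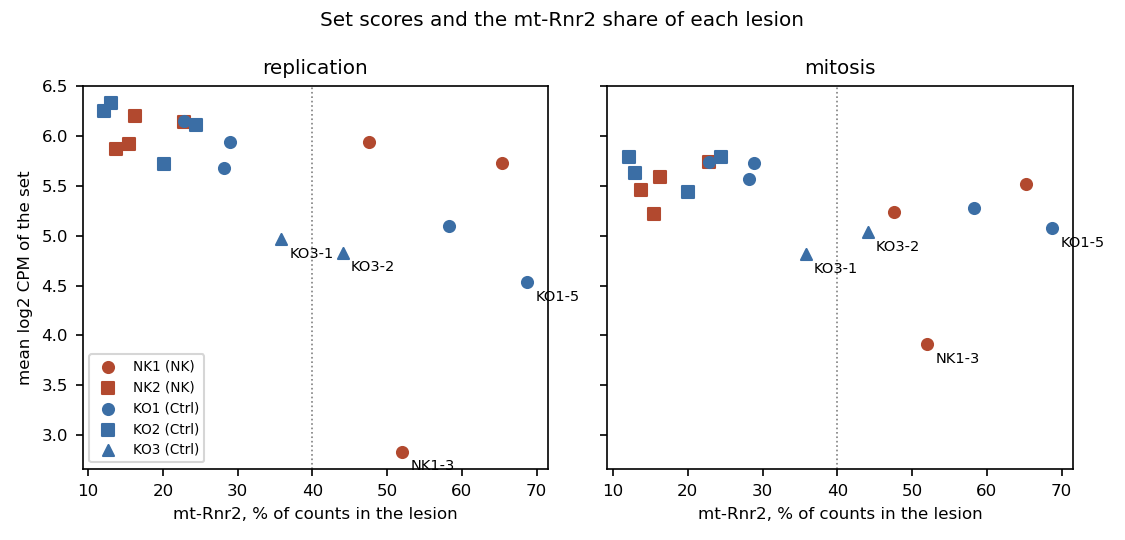
Mean log2 CPM of the replication set (left) and the mitosis set (right) against the share of counts taken by mt-Rnr2, 1 point a lesion, with colour for the group and symbol for the mouse. The dotted line marks 40%, and the replication scores of the 6 lesions beyond it have a median of 4.96 beside 6.03 for the other 12. Of these 6, NK1-1 and NK1-2 stand at 5.945 and 5.732.

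Markers of other cells that a captured lesion can hold were present in both groups, and any of these cells may also divide. Summed over 10 NK cell markers, levels ran from 5.04 to 75.7 CPM in the NK lesions, highest in NK1-1, and from 0.575 to 10.2 CPM in the Ctrl lesions. The 7 fibroblast markers summed to 475 to 7882 CPM in the NK lesions, again highest in NK1-1, where Hmgb2, Rrm2 and Ccne2 were highest, and to 137 to 834 CPM in the Ctrl lesions. The 6 airway markers summed to 1.16 to 24600 CPM in the NK lesions and 0.575 to 15890 CPM in the Ctrl lesions. Their highest sums lay in NK1-3 and KO3-1, both low in the set scores. The next highest, 4512 CPM in NK1-1 and 4315 CPM in KO1-3, came with replication scores of 5.945 and 5.939. KO1-5 and KO3-2, with low replication scores of 4.533 and 4.831, had airway sums of 61.3 and 66.1 CPM. The 9 alveolar markers summed to 195 to 3021 CPM in the NK lesions, highest in NK1-3, and to 654 to 3447 CPM in the Ctrl lesions. In the Ctrl lesions the highest sums were 3447 CPM in KO1-2, 2493 in KO1-5, 2295 in KO3-1 and 2208 in KO3-2. Together with NK1-3 these were the lesions with the lowest replication scores, which were 5.094, 4.533, 4.964 and 4.831 in the Ctrl lesions named. The next score up, 5.684 in KO1-4, came with 654 CPM, the lowest alveolar sum of the Ctrl lesions. The 7 keratin and adhesion markers of carcinoma, which lung epithelium also expresses, reached 919 CPM in NK1-3, against 103 to 180.3 CPM in the other NK lesions and 89.1 to 361 CPM in the Ctrl lesions. The 8 neutrophil markers summed to 99.0 to 846 CPM in the NK lesions and 181 to 4925 CPM in the Ctrl lesions, highest in KO3-2, where Aurkb and Plk1 were highest. Sums over 10 endothelial markers ran from 39.8 to 331 CPM in the NK lesions and from 119 to 469.6 CPM in the Ctrl lesions, and over 9 macrophage markers from 143 to 783 CPM in the NK lesions and from 262 to 706 CPM in the Ctrl lesions. Those over 5 red blood cell markers ran from 238 to 2170 CPM in the NK lesions and from 116 to 9071 CPM in the Ctrl lesions. Each marker of these lists was detected in both groups. Their part in the members' values was not tested.

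Further genes of the same pathways came from lists drawn up with earlier results of these data known. In edgeR each list had 0 calls, beside 0% of all genes. Of 42 further replication genes, 20 had positive and 22 negative fold changes, with a median of -0.05. The 2 with the smallest p were Orc2, a subunit of the origin recognition complex, at 0.97 ± 0.42 (SE), and Chaf1a, a chromatin assembly factor, at -2.07 ± 0.89. Orc2 had 41.2 and 29.7 CPM in the NK mice, against 17.96, 22.8 and 13.3 CPM in the Ctrl mice, while Chaf1a had 2.57 and 3.28 CPM against 7.35, 3.75 and 26.1 CPM, with 66.1 CPM in lesion KO3-2.

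Of 46 further mitosis genes, 23 had positive and 23 negative fold changes, with a median of -0.04. Ect2, an activator of the contractile ring at cytokinesis, gave 1.36 ± 0.58 (SE) with 262 CPM in lesion NK1-1, and Ncapd2, a condensin subunit, gave -1.49 ± 0.69 with 662 CPM in lesion KO3-2. Of 15 further regulators of G1, 3 were positive and 12 negative, with a median of -0.20. E2f2, an E2F factor, gave -1.31 ± 0.63 with its highest level, 219 CPM, in KO3-2, and E2f5 gave 0.83 ± 0.49. Of 17 brakes on the cycle 16 were tested, 11 positive and 5 negative, with a median of 0.18. The kinase inhibitor Cdkn1c gave -2.86 ± 1.16 with 0.381 and 0.482 CPM in the NK mice, against 2.87, 0.702 and 6.09 CPM in the Ctrl mice, and the arrest-linked cyclin Ccng2 gave 0.99 ± 0.58. None of these genes passed the test (edgeR adjusted p = 0.9998 for each).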

How the data were processed

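The values of the deposited gene table are expected counts, as RSEM estimates them, and the authors did not scale them. The submitters' processing notes name STAR, RSEM 1.2.28, bcl2fastq 2.17, DESeq2 and the mm10 build; strand handling was not given in the sources used here. A second deposited table, normalized by the authors and on a log2 scale as judged from its values, served as an alternative, and how it was made was not given in the sources used here. The deposited table of animal numbers was not used.

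Expected counts were rounded and added up per mouse. Of 49585 identifiers, 49326 matched a symbol, and filterByExpr (minimum count 10, minimum total 15) kept 16917 genes. The test between NK and Ctrl mice was edgeR's quasi-likelihood F test (version 4.0.16, R 4.3.3, TMM scaling, robust), and the standard error is the log2 fold change divided by the square root of F. CPM use the TMM-scaled library size, and log2 CPM a prior count of 2. The common dispersion corresponds to a coefficient of variation of 64.9% between mice. Nothing in the labels beyond the mouse in each title says how lesions were handled together, so p-values measure the spread between these 5 mice. All pairs of lesions within a mouse differed beyond sampling noise (chi-square per degree of freedom of 22.1 or more). Limits from 0 counts cover counting error only. The tables held 0 columns of other samples.

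The members were chosen by name, not by a measured value, but both they and the lists were chosen with earlier results of these data known. In each set the 2 members of highest mean CPM and the 2 of smallest p are described in full, with the 2 genes of smallest p of each further list. All other members described were chosen after their values were seen. Promoters are those of the 2 highest members of the replication and mitosis sets. Exon lengths come from GENCODE M21. Near-identical copies were sought among its transcripts with minimap2 (at least 500 aligned bases at 90% identity). Alternatives used DESeq2 1.42.0 and limma 3.58.1. The fit was checked on simulated counts.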

Additional observations from a re-analysis of the deposited data

Results flagged for a closer look

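Within the 7 NK lesions, 42 series of values (39 members and 3 set scores) were examined for a highest or lowest lesion whose gap to its neighbour passed Dixon's limit for 7 values at the 95% level, and 8 had one. Chance gives about 1 in 20 where the 7 values are independent, but these lesions come from 2 mice and all 8 lie in lesions of mouse NK1, so that share does not hold here. Lesion NK1-3 was far below the others for Mcm2, at 13.7 CPM (the next lesion had 56.4), and for Cdt1, at 11.52 CPM (next 53.2). The same lesion was far below for the replication score, at 2.83 (next 5.73), the G1/S score, at 3.27 (next 4.84), and the mitosis score, at 3.91 (next 5.22), which share its library. E2f1 was far above in NK1-3, at 87.1 CPM (next 38.2). Lesion NK1-1 was far above for Ccne2, at 24.1 CPM (next 9.96), and for Hmgb2, at 229.8 CPM (next 79.0). The groups of 11 Ctrl lesions and of mice are outside the sizes examined.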

How the results depend on the processing

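Every member was on the same side of the threshold, with 0 calls, under all 33 alternatives, 23 of which were fits without 1 mouse or 1 lesion. Over the whole table the count of called genes was 0 in edgeR as reported, 224 with no filter on low counts, 39 in DESeq2 and 7 with the replicate block on mouse number, and 0 to 4 when a mouse or lesion was left out. The 4 were called without mouse NK2, where the median of all genes was -0.16. With the replicate block, 1 of 39 members had an edgeR unadjusted p under 0.05, beside 554 of 16917 genes. This block tied NK1 to KO1 and NK2 to KO2. Nothing states that these mice were paired, and deviations from the group means correlated by 0.096 and 0.289 over 16917 genes in the 2 pairs.

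The sign was less firm than the lack of calls: 14 of 39 members kept it in all alternatives, and 83 of 1287 values had the other sign. The replication median of 0.22 was -0.01 in the authors' normalized log2 table, -0.04 with each lesion at the same weight and -0.07 with the replicate block, and ran from -0.07 to 0.41 when a mouse or lesion was left out. In the same fits the G1/S median ran from -0.08 to 0.37 and the mitosis median from -0.38 to 0.06. Without the lesions over 40% in mt-Rnr2 these medians were 0.13 and 0.053, and the G1/S median was also positive with the replicate block (0.012), with mice as random blocks (0.057) and in the normalized table (0.10). With the replicate block the sign turned for Mcm2 (-0.046), Mcm5 (-0.093), Gins2 (-0.025), E2f1 (0.012), Top2a (-0.01), Birc5 (-0.12) and Kif20a (-0.32). With equal weight it turned for Mcm2 (-0.032), Gins2 (-0.51), Ccne1 (0.32), Ccne2 (-0.18) and Top2a (-0.01), in the normalized table for Mcm2 (-0.001), Gins2 (-0.082) and Ccne1 (0.25), and with the mouse as a random block for Ccne1 (0.17). Without the lesions over 40% in mt-Rnr2 it turned for Mcm6 (0.25), Mcm7 (0.003), Ccne1 (0.16), Ccnb1 (0.031), Ccnb2 (0.13), Ccna2 (0.13), Bub1 (-0.057), Plk1 (0.13), Aurkb (0.028), Cdc20 (0.092), Tpx2 (0.038) and Ube2c (0.14). The causes were not tested.

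Leaving out a mouse or lesion turned the sign of 22 members, with ranges of -0.056 to 0.51 for Mcm2, -0.076 to 0.61 for Mcm5, -0.79 to 0.28 for Mcm6, -1.05 to 0.056 for Mcm7, -0.10 to 0.74 for Pcna, -0.29 to 0.44 for Gins2, -0.33 to 0.18 for Cdt1, -0.42 to 0.28 for E2f1, -0.52 to 0.42 for Ccne1, -0.46 to 1.48 for Ccne2, and -0.56 to 0.70 for Mki67. In the mitosis set the other ranges were -0.30 to 0.38 for Top2a, -0.70 to 0.20 for Ccnb1, -0.82 to 0.23 for Ccnb2, -0.37 to 0.14 for Ccna2, -0.16 to 0.60 for Bub1, -0.14 to 0.28 for Birc5, -0.64 to 0.13 for Cdc20, -0.31 to 0.004 for Cenpa, -1.19 to 0.35 for Ube2c, -0.30 to 0.47 for Kif20a and -0.16 to 1.48 for Hmgb2. Members that kept their sign in these fits still moved by over 1.5 times, among them Mcm3 (-0.90 to -0.19), Mcm4 (0.080 to 1.204), Rrm1 (-0.53 to -0.041), Rrm2 (0.19 to 1.12), Cdc6 (0.18 to 0.67), Tyms (0.079 to 1.01), Ccnd1 (-1.37 to -0.16), Cdk1 (-1.45 to -0.10), Bub1b (-0.83 to -0.003), Plk1 (-1.19 to -0.18), Aurka (-1.01 to -0.080), Aurkb (-1.66 to -0.24), Cenpf (-0.42 to -0.13), Nusap1 (0.37 to 1.13), Tpx2 (-1.01 to -0.015) and Kif11 (0.022 to 0.54). With 1 mouse left in the NK group, that mouse was assumed to vary like the Ctrl mice. Depth limits the least abundant members most, since 3 counts are 2.16 CPM in NK1-3 and 0.175 CPM in NK2-4.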
